A study of Mus musculus with 6 samples.

Results

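The genes described here are the transcription factor NRF2 (Nfe2l2), its inhibitor KEAP1 (Keap1) and 7 classical targets of NRF2, namely Nqo1, Hmox1, Gclc, Gclm, Slc7a11, Txnrd1 and Srxn1. They were picked by gene symbol as members of the pathway, with earlier results of these data known, and all 9 were found among the 13595 genes of the deposited table. Poly(A) RNA was sequenced from CD31-positive cells isolated from the livers of C57BL6/J mice 4 weeks old and grown as primary cultures. CD31 is a surface protein used to select endothelial cells. Before RNA was taken, the cells of every library received 100 µM indoxyl sulfate (IS), a ligand of the aryl hydrocarbon receptor (AHR), together with hypoxia and nutrient deprivation for 6 hours. The 2 groups, 3 libraries labelled male and 3 labelled female with replicate numbers 4, 5 and 6 in each, differ in the labels only by sex. No library without indoxyl sulfate or without hypoxia was analysed here, so each difference below is one between the labels under the same treatment.

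NRF2 is held in the cytoplasm by KEAP1, an adaptor of a CUL3 ubiquitin ligase that has NRF2 degraded. Oxidants and electrophiles modify cysteines of KEAP1, NRF2 then accumulates without any need for more of its messenger RNA, pairs with small MAF proteins and binds antioxidant response elements near its target genes. The targets make glutathione, keep thioredoxin and peroxiredoxins reduced, reduce quinones and break down heme. In endothelial cells the pathway is known for protection against oxidative injury. Some targets also answer to other factors: Nqo1 to AHR, Hmox1 to the repressor BACH1, and Slc7a11 to ATF4, the factor of the amino acid response.

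Library totals ran from 22303270 to 31189363 reads, and each member had at least 1140 reads in every library. The labels do not say whether the replicates are separate mice, isolations or wells, so p-values measure the spread between these libraries, which may be technical. Male replicate 4 stood apart within its group, with a median absolute log2 difference over tested genes of 0.19 from male replicate 5 and 0.18 from male replicate 6, against 0.07 between the latter. Transcripts of Y-linked genes in every female-labelled library went against the label. Ddx3y stood at a normalized read count (reads divided by 1 factor per library) of 48.5 to 57.7 in the libraries labelled female and 47.2 to 76.3 in the male-labelled ones, Uty at 22.2 to 27.7 and 23.7 to 32.0, Eif2s3y at 29.4 to 30.2 and 55.3 to 61.2, and Kdm5d at 17.6 to 20.8 and 30.7 to 37.5. Xist, transcribed from the inactive X chromosome, stood at 234 to 324 and 0.124 to 0.458. Whether these libraries hold cells of both sexes or carry a wrong label was not tested, so a value given for them is that of the library as labelled. Every direction given here rests on these labels, which name no batch, so that a batch following them cannot be told apart from sex. Cell type markers also moved with the label, where 69.3% of all tested genes were called, that is, had an adjusted p under 0.05 by limma (34.6% higher and 34.6% lower). The 8 endothelial markers summed to 2083 to 2191 in the male-labelled libraries and 1156 to 1217 in the female-labelled ones, with 6 of the 8 called lower and Eng called higher. Pecam1, which encodes CD31, was at 18.2% of its male level. The 8 smooth muscle and pericyte markers summed to 260.9 to 384 and 2621 to 3339, with 5 called higher, among them Myh11 and Acta2, and 3 called lower, among them Pdgfrb. Sums of the other lists ran, in the same order, from 1539.5 to 1827 and 740.3 to 776 for 7 fibroblast and stellate markers, from 724 to 897 and 538 to 541 for 7 cholangiocyte and mesothelial markers, from 7.51 to 9.99 and 13.2 to 15.7 for 4 macrophage markers and from 0.871 to 1.07 and 0.0884 to 0.291 for 4 hepatocyte markers. Within the cholangiocyte and mesothelial list 4 of 6 tested markers were called higher, among them the mesothelial genes Msln, with a mean of 19.4 in the male-labelled libraries and 332 in the female-labelled ones, and Wt1, with 0.101 and 12.8. Upk3b was at 0 in every male-labelled library and at 1.37 to 4.65 in the female-labelled ones, and Krt7 had means of 1.84 and 9.19, while Krt19 (461 and 116) and Sox9 (353 and 66.3) were called lower. The macrophage marker Ptprc was at 0 in the male-labelled libraries and 0.142 to 0.332 (at most 8 reads) in the female-labelled ones. The hepatocyte marker Ttr was at 0.124 to 0.191 (at most 5 reads) in the male-labelled libraries and 0 in the female-labelled ones. Both were too weak to be tested. The 4 lymphocyte markers were looked for but are not among the genes of the deposited table. Nor are Adgre1 and Clec4f (macrophage), Lrat (fibroblast and stellate) and Cyp2e1 (hepatocyte). In bulk cultures a change in the share of a cell type and a change in RNA per cell cannot be told apart, and the part of these markers in the results below was not tested.

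The targets and the regulators moved in opposite directions. All 7 target genes were higher in the libraries labelled female, from 1.17-fold for Hmox1 to 5.51-fold for Txnrd1, and both regulators were lower, Nfe2l2 at 64.2% and Keap1 at 79.1% of the male level. A gene was called where its adjusted p was under 0.05 in limma, a linear model fitted on log2(value + 1) over 12568 genes. All 9 members were called, where 69.3% of all tested genes were, and 73.5% of those with a mean normalized read count of at least 50. The 7 called higher compare with 34.6% of tested genes and the 2 called lower with 34.6%. With a log2 fold change of at least 1 as well, 4 members were called higher, where 8.51% of tested genes were, and 0 lower, where 12.1% were. The 3 libraries of each group did not overlap for 9 of 9 members, as for 74.1% of tested genes. Being called was thus common in this comparison. The median log2 fold change was 0.85 over the members and 1.11 over the 7 targets, beside 0.01 over all tested genes. Together the members took 0.338% to 0.374% of the reads of a male-labelled library and 0.623% to 0.654% of those of a female-labelled one.

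**Figure D1:**
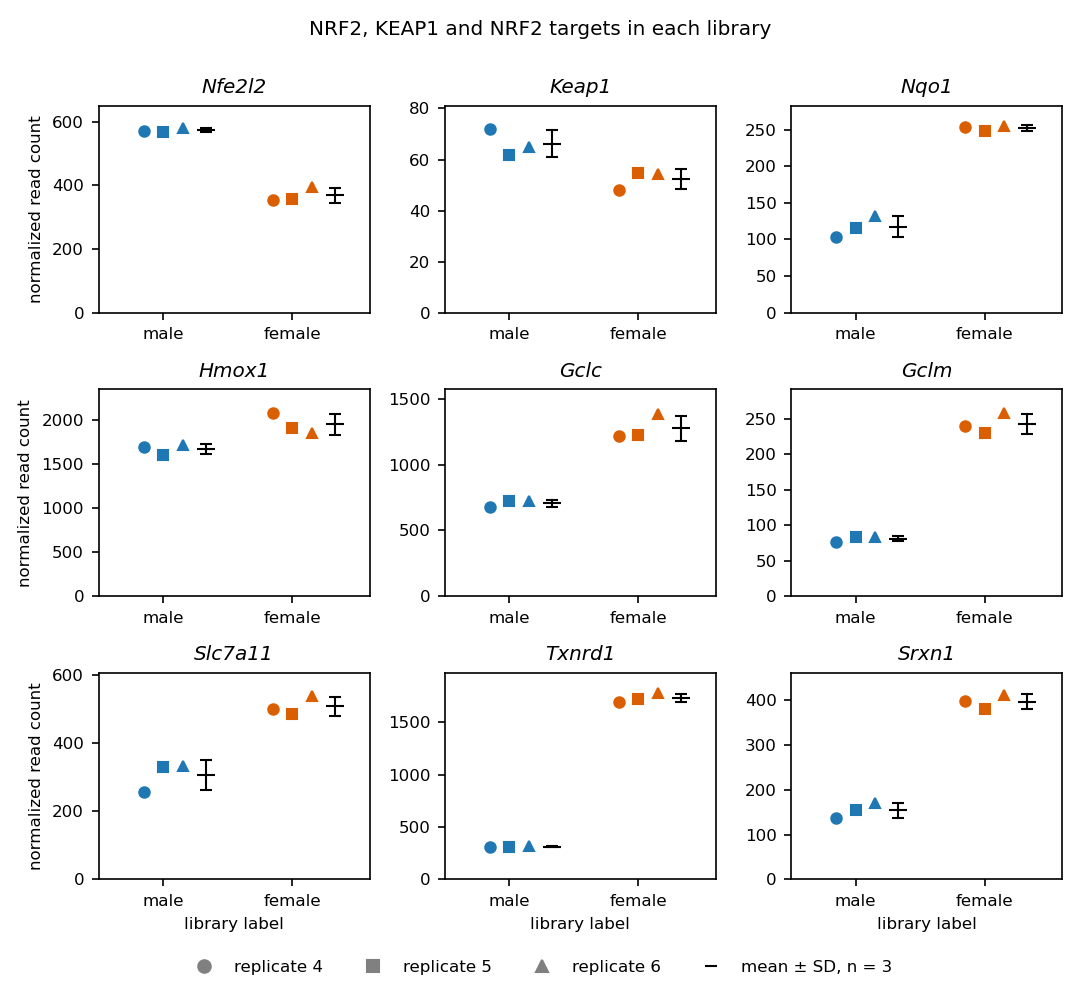
Normalized read count (vertical axis, from 0) of the 9 genes in each of the 6 libraries, with the label on the horizontal axis, replicates as symbols, and the mean with SD (n = 3) as a black bar. The libraries labelled female lie above those labelled male for the 7 targets and below them for Nfe2l2 and Keap1, with the widest gap for Txnrd1 (311 to 320.2 against 1696 to 1777).

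NRF2 recognises the antioxidant response element, whose core was searched for as TGACNNNGC on both strands in windows from 250 bases before to 50 bases after annotated starts (RefSeq, GRCm38.p6, a build other than the mm39 named in the submitters' processing notes). The table of promoters held 9 starts of 7 members, of which 4 starts, of 4 genes, had a match (44.4%), beside 12.4% of all 32851 windows. Below are the 250 bases before the start of the 3 members whose match lies upstream, shown because Nfe2l2 itself fell while Gclm and Txnrd1 rose. They run 5′ to 3′ on the strand of the gene, with the match in capitals, and the matches of Gclm and Txnrd1 read on the opposite strand.
Nfe2l2, chr2:75704664-75704913, minus strand: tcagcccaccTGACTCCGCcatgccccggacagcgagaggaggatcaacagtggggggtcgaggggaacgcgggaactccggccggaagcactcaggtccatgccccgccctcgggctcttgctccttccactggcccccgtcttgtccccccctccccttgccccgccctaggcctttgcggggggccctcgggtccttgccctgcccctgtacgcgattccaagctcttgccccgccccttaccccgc
Gclm, chr3:122245307-122245556, plus strand: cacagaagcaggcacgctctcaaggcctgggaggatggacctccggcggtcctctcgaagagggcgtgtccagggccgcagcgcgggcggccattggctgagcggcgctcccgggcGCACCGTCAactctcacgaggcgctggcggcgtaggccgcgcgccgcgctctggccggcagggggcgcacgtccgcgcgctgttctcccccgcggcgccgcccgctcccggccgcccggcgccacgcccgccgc
Txnrd1, the second of 3 starts, chr10:82858956-82859205, plus strand: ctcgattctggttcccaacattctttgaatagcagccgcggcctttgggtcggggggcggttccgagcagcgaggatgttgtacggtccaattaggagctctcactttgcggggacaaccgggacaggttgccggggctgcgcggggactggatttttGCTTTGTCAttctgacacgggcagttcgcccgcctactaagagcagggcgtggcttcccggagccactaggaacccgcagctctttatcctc
The match began 240 bases before the start in Nfe2l2, 134 in Gclm and 92 in Txnrd1. That of Srxn1, GCTAGGTCA, began at base 29 after its start. The windows of Nqo1, Keap1 and Slc7a11 held no match to these letters. Hmox1 and Gclc had no start among the windows and were not searched. Elements outside the windows or with other letters were not looked for, so a window without a match does not mean a gene without an element. The core bound by AHR, GCGTG, was matched in windows of Gclm (3 times), Keap1 (2), Srxn1 (2) and all 3 starts of Txnrd1, beside 32.4% of all windows, and the core bound by hypoxia-inducible factors, ACGTG, in those of Gclm and Keap1, beside 19.6%. No match of one core overlapped a match of another in these windows, and a match is not a measurement of binding.

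Of the regulators, Nfe2l2 (chromosome 2) had normalized read counts of 572, 569 and 580.4 in male replicates 4, 5 and 6 and 353, 358 and 394 in the female ones. The male libraries agreed closely, with a coefficient of variation of 1.06%, and every library labelled female was lower. The log2 fold change was -0.64 (SE 0.06, adjusted p 3.46e-05 by limma), a size or more below 0 that 19.8% of tested genes shared. Keap1 (chromosome 9), the sensor and inhibitor, was read at 72.0, 61.7 and 64.8 in the male-labelled libraries and 47.9, 54.9 and 54.1 in the female-labelled ones. The gap between the groups was narrow, since the highest female value was 54.9 and the lowest male value 61.7. Its log2 fold change was -0.33 (SE 0.08, adjusted p 0.00703 by limma). After a correction of each library for GC content and transcript length, Keap1 was no longer called (-0.14, adjusted p 0.218 by limma). Of its exon bases 10.9% overlap Gm16754 on the opposite strand (GENCODE M21), and as the strand setting of the counting is not given in the sources used here, reads of these genes cannot be told apart there.

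Among the enzymes of quinone and heme metabolism, Nqo1 (chromosome 8), which reduces quinones without forming semiquinone radicals, had counts of 104, 116 and 132 in the male-labelled libraries and 254, 248 and 255 in the female-labelled ones. The female values lay within a narrow band and the male ones spread more widely, with coefficients of variation of 1.45% and 11.9%. The log2 fold change was 1.11 (SE 0.09, adjusted p 8.81e-06 by limma). Hmox1 (chromosome 8), the inducible heme oxygenase that yields biliverdin, iron and carbon monoxide, was the most abundant member, at 1689.7, 1602 and 1717 against 2078, 1907 and 1851. The groups did not overlap, but its log2 fold change of 0.22 (SE 0.07, 95% interval 0.05 to 0.39, adjusted p 0.0273 by limma) was the smallest of the 7 targets, and 36.8% of tested genes rose by as much or more. The call was lost with the replicate number as a block (adjusted p 0.0636), and in the limma fits without male replicate 5 (0.0894), female replicate 4 (0.110) or female replicate 5 (0.0741).

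The 3 genes of glutathione supply rose together. Gclc (chromosome 9) encodes the catalytic subunit of glutamate-cysteine ligase, which limits glutathione synthesis, and was read at 677, 721 and 723 in the male-labelled libraries and 1214, 1223 and 1386 in the female-labelled ones. The lowest female-labelled library stood well above the highest male-labelled one. The log2 fold change was 0.85 (SE 0.07, adjusted p 1.74e-05 by limma). Gclm (chromosome 3), the modifier subunit that raises the activity of the enzyme, went from 76.4, 83.5 and 83.1 to 239, 230.0 and 258, a log2 fold change of 1.57 (SE 0.07, adjusted p 3.49e-07 by limma). Only 3.33% of tested genes rose by as much or more. Of its 50-base stretches 3.92% occur in transcripts of other genes and 4.71% of its exon bases overlap Gm17494 on the opposite strand or Gm6061 on the same strand. Slc7a11 (chromosome 3), the cystine carrier of the xCT antiporter, had counts of 256, 331 and 333 against 501, 485 and 539. Male replicate 4 was the lowest library, at 77.2% of the mean of the other male ones. The log2 fold change was 0.74 (SE 0.11, adjusted p 0.000326 by limma), and 0.61 without male replicate 4. Slc7a11 has the lowest GC content (40.7%) and the longest transcript (9223 bases) of the members, and after the correction for both it was not called (0.23, adjusted p 0.0804 by limma).

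The largest rise of the members was in the thioredoxin branch. Txnrd1 (chromosome 10), the cytosolic thioredoxin reductase, stood at 311, 312 and 320.2 in the male-labelled libraries and 1696, 1725 and 1777 in the female-labelled ones. Both groups were tight, with coefficients of variation of 1.58% and 2.39%, and the gap between them was far wider than either. The log2 fold change was 2.46 (SE 0.06, adjusted p 2.04e-08 by limma), a rise that only 128 of 12568 tested genes (1.02%) reached, Txnrd1 included. It ran from 2.43 to 2.53 over 16 alternatives. Srxn1 (chromosome 2), sulfiredoxin, which restores overoxidized peroxiredoxins, went from 137, 155 and 170.0 to 397, 379.5 and 411, a log2 fold change of 1.36 (SE 0.08, adjusted p 2.40e-06 by limma). Of the tested genes, 4.73% rose by as much or more.

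**Figure D2:**
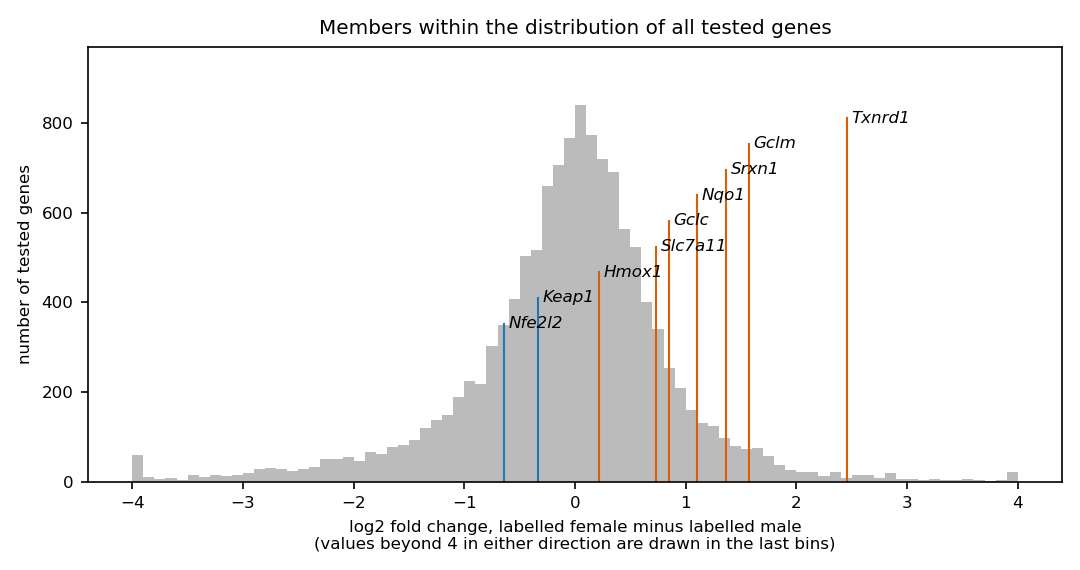
Number of tested genes (vertical axis) by log2 fold change of the libraries labelled female against those labelled male (horizontal axis, bins of 0.1), with the 9 members as vertical lines whose heights carry no value and with changes beyond 4 in either direction drawn in the last bins. Txnrd1 (2.46) and Gclm (1.57) lie in the upper tail, Hmox1 (0.22) and Keap1 (-0.33) in the body of the distribution.

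The order of the members by level differed between the labels. Divided by the length of the longest coding transcript, Hmox1 had the highest level in both groups, 1064 ± 38.4 normalized reads per kilobase in the male-labelled libraries and 1239.8 ± 75.5 in the female-labelled ones (SD, n = 3). Nfe2l2 came next in the male-labelled libraries, at 232 ± 2.45, followed by Gclc, at 206 ± 7.65, and Txnrd1, at 86.8 ± 1.37. In the libraries labelled female Txnrd1 came next to Hmox1, at 478 ± 11.4, and Nfe2l2 ranked 5 of 9, at 149 ± 9.21. Keap1 (18.3 ± 1.45) and Gclm (14.5 ± 0.716) were the lowest in the male-labelled libraries, and traded places in the female-labelled ones (14.5 ± 1.05 and 43.4 ± 2.59). The order rests on the length of the longest coding transcript, and no other length was tried. Neighbours in it were apart in all libraries labelled male, though Txnrd1 and Nqo1 nearly met, at 86.0 and 84.9. In those labelled female the ranges of Nfe2l2 and Srxn1 (141 ± 5.68) overlapped, and those of Nqo1 and Nfe2l2 nearly met, at 159.8 and 159.4. Male replicate 4, the library that stood apart, was the lowest of its group for 6 members (Nqo1, Gclc, Gclm, Slc7a11, Txnrd1 and Srxn1) and the highest for Keap1. For Txnrd1 it was barely so, at 311.5 beside 311.8 in male replicate 5. The share of all tested genes for which this library was lowest was not computed. Without male replicate 4 all 9 members were called in the same direction, and the log2 fold change of Nqo1 was 1.02 and that of Srxn1 1.28.

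Ratios within a library, which do not depend on how libraries are scaled, were apart between the groups for all pairs examined. The ratio of Gclm to Gclc was 0.113, 0.116 and 0.115 in the male-labelled libraries and 0.197, 0.188 and 0.187 in the female-labelled ones, so the level of the modifier subunit relative to the catalytic one was 1.66-fold higher. The ratio of Keap1 to Nfe2l2 went from 0.115 ± 0.00918 to 0.142 ± 0.00966 (SD, n = 3), and that of Bach1 to Nfe2l2 from 0.216 ± 0.00689 to 0.153 ± 0.00577. The ratio of Srxn1 to Prdx1, one of the peroxiredoxins it repairs, went from 0.236 ± 0.0104 to 0.420 ± 0.0244. The ratio of Slc3a2, the heavy chain that brings the cystine carrier to the membrane, to Slc7a11 went from 0.787 ± 0.00689 to 0.463 ± 0.0155. That of Hmox2, the constitutive heme oxygenase, to Hmox1 went from 0.0294 ± 0.00204 to 0.0188 ± 0.00265. The groups did not overlap for any of the 6 ratios, beside 74.1% of tested genes taken singly. The share over other pairs of genes was not computed, so whether this separation is particular to these pairs was not tested. Each of the 6 ratios had an exact two-sided permutation p of 0.1 (0.1 adjusted over the 6). That is the smallest that 3 libraries against 3 can give, so no ratio could pass the threshold. After the GC and length correction, the log2 difference of Slc3a2 to Slc7a11 was -0.15 in place of -0.77, and that of Keap1 to Nfe2l2 0.55 in place of 0.30.

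**Figure D3:**
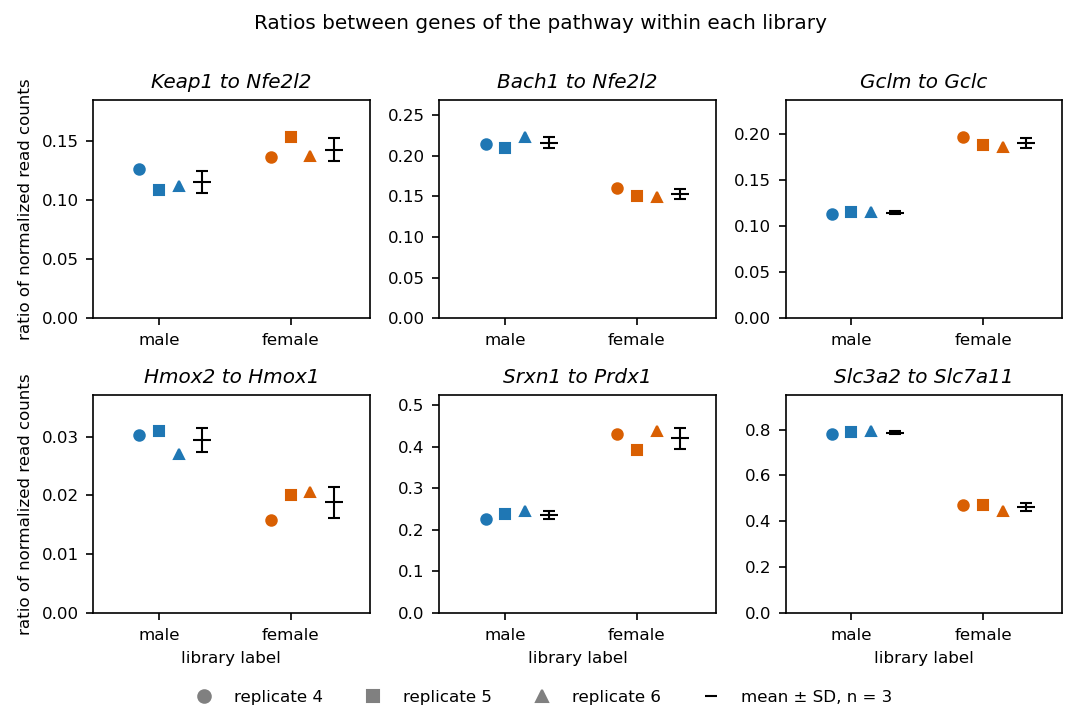
Ratio of normalized read counts (vertical axis, from 0) of 6 pairs of genes in each library, by label, with replicates as symbols and the mean with SD (n = 3) as a black bar. Gclm to Gclc lies at 0.113 to 0.116 in the male-labelled libraries and 0.187 to 0.197 in the female-labelled ones.

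Other genes of the pathway moved in both directions, unlike the 7 targets named above. Their lists mix targets with regulators and inhibitors, and both sets were chosen with earlier results of these data known. Of 56 listed, 55 were tested, and 31 were called higher, 14 lower and 10 not called, with a median log2 fold change of 0.30. Over all tested genes 69.3% were called, 34.6% higher and 34.6% lower, with a median of 0.01, and the counts of the lists that follow stand beside these same shares. Among 11 regulators and partners of NRF2, 6 were higher, 4 lower and 1 not called. Over the fits that left out 1 library, from 41 (without female replicate 5) to 47 (without male replicate 4) of the 55 pathway genes were called, beside 45 with all libraries. Bach1, the repressor that competes with NRF2 at its elements and at Hmox1 above all, fell from 123, 119 and 129.7 to 56.4, 53.8 and 59.0, a log2 fold change of -1.12 (SE 0.06, adjusted p 1.64e-06 by limma), beside -0.64 for Nfe2l2. Mafk, a small MAF partner, rose from 34.2, 51.3 and 53.8 to 111, 106 and 89.4 (log2 fold change 1.14), and Bach2, a relative of Bach1 read weakly here, rose from 2.60 ± 1.24 to 6.58 ± 0.274 (SD, n = 3, log2 fold change 1.13). Sqstm1, whose product p62 binds KEAP1 and is itself a target of NRF2, rose from 1278 ± 136 to 1880.1 ± 102, or by 0.56 on the log2 scale. Cul3, the scaffold of the ligase, rose (0.62, and 0.28 after the GC and length correction), as did Nfe2l1, an NRF2 relative (0.28), while Gsk3b, a kinase that marks NRF2 for a further route of degradation, fell (-0.38, and -0.59 after that correction).

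In the glutathione list, 2 of 6 tested genes were called higher, 1 lower and 3 not called. Gss, glutathione synthetase, which completes the synthesis begun by Gclc and Gclm, rose from 20.8 ± 0.831 to 46.3 ± 6.49 (SD, n = 3), which is 1.11 on the log2 scale (SE 0.11, adjusted p 2.84e-05 by limma). Glrx, glutaredoxin, fell by 1.12 on the log2 scale. Slc3a2 (log2 fold change -0.03, 95% interval -0.27 to 0.21), the glutathione reductase gene Gsr (-0.14, interval -0.29 to 0.02) and Gpx4, which reduces lipid peroxides (0.17, interval 0.0044 to 0.34), were not called. The sign of Slc3a2 changed under quantile normalization, under the GC and length correction and without male replicate 5 or 6, and it was called lower without male replicate 4 (-0.16). Gsr was called lower without female replicate 6 (-0.19). Gpx4 was called higher under quantile normalization (0.27), without male replicate 5 (0.21) and under the GC and length correction (0.39), and its log2 fold change was 0.10 and not called without male replicate 4. It shares 34.7% of its 50-base stretches with other transcripts, which leaves its value uncertain. Gpx2 was looked for but is not among the genes of the deposited table.

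In the thioredoxin system, 6 of 11 genes were called higher, 2 lower and 3 not called. Prdx6, a peroxiredoxin that reduces phospholipid hydroperoxides, rose from 155, 162 and 168 to 400.2, 403 and 385 (log2 fold change 1.29, SE 0.06, adjusted p 3.97e-07 by limma), and Prdx1, a cytosolic peroxiredoxin, rose by 0.54. Prdx2 stood at 250 ± 12.3 and 275 ± 4.48 and was not called (0.14, adjusted p 0.0601 by limma), but was called higher under quantile normalization (0.25) and under the GC and length correction (0.17). Txnip, which binds and inhibits thioredoxin and is regulated by glucose, fell from 1337, 1005 and 865 to 258, 226 and 243, a log2 fold change of -2.11 (SE 0.14, adjusted p 4.32e-06 by limma).

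NADPH feeds both Txnrd1 and glutathione reductase. Of 6 genes that supply it, 3 were called higher, 2 lower and 1 not called. Pgd, which makes NADPH in the pentose phosphate pathway, rose from 294 ± 9.23 to 486 ± 8.21 (SD, n = 3, log2 fold change 0.72) and Taldo1, of the arm of it that recycles sugars, from 251 ± 26.1 to 440.05 ± 6.73 (0.81), whereas G6pdx, its entry enzyme, fell from 278 ± 7.06 to 191 ± 27.8 (-0.55). Tkt, of the same pathway, stood at 406 ± 3.49 and 411 ± 4.06 and was not called (log2 fold change 0.02, 95% interval -0.10 to 0.13), except after the GC and length correction (0.14, adjusted p 0.0353 by limma).

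Of 7 genes of heme and iron handling, 5 were called higher and 2 lower. Slc40a1, ferroportin, the iron exporter and an NRF2 target, had the largest rise of the list, from 6.18, 3.20 and 3.28 to 28.3, 27.4 and 28.9 (log2 fold change 2.53, SE 0.20, adjusted p 8.81e-06 by limma). Blvrb, a biliverdin reductase, rose from 26.2 ± 3.89 to 63.1 ± 3.36 (SD, n = 3, log2 fold change 1.24), and Fech, which completes heme synthesis, rose by 0.30 but was not called after the GC and length correction (0.15, adjusted p 0.0531 by limma). The ferritin chains, which store iron, differed: Fth1 fell from 2962 ± 281 to 2010.5 ± 72.1 (-0.56) and Ftl1 rose from 2539 ± 239.8 to 3063 ± 191 (0.27). Ftl1 shares 50.9% of its 50-base stretches with other transcripts, which leaves its value uncertain. Its call was lost under quantile normalization, with the replicate block and without male replicate 5, female replicate 4 or female replicate 5, and its log2 fold change ran from 0.20 to 0.45 over 16 alternatives.

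Among 14 further detoxification genes, 9 were called higher, 3 lower and 2 not called. Abcc4, an exporter of organic anions, rose from 35.3, 39.1 and 40.0 to 153, 139 and 152 (log2 fold change 1.93, SE 0.07, adjusted p 1.94e-07 by limma), and Gsta4, which conjugates the lipid peroxidation product 4-hydroxynonenal, from 22.1 ± 0.760 to 71.4 ± 16.8 (SD, n = 3, 1.62). Abcc1, an exporter of glutathione conjugates, rose by 0.67, and Slc48a1, a heme transporter, rose from 184 ± 21.7 to 242 ± 8.20 (0.40, adjusted p 0.0038 by limma). Ephx1, microsomal epoxide hydrolase, went the other way, from 795, 712 and 716 to 334, 358 and 398 (-1.03, SE 0.08, adjusted p 1.01e-05 by limma). Ugdh, which makes the glucuronic acid donor for conjugation, at 503 ± 83.4 and 533 ± 9.89, was not called (0.09, adjusted p 0.451 by limma), but was called higher without male replicate 4 (0.23, adjusted p 0.000727 by limma). Its log2 fold change was 0.02 without male replicate 5 and 0.04 without male replicate 6.

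Of 6 genes of the amino acid response driven by ATF4, 2 were called higher (Asns, asparagine synthetase, with a log2 fold change of 1.29 and Chac1, which breaks down glutathione, with 1.75), 3 lower (among them Ddit3, the stress factor CHOP, with -1.84 and Sesn2, sestrin, with -1.04) and 1, Atf4 itself, not called (0.21, adjusted p 0.213 by limma). Atf4 was called higher after the GC and length correction (0.34, adjusted p 0.0335 by limma), and its log2 fold change was 0.03 without male replicate 4.

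**Figure D4:**
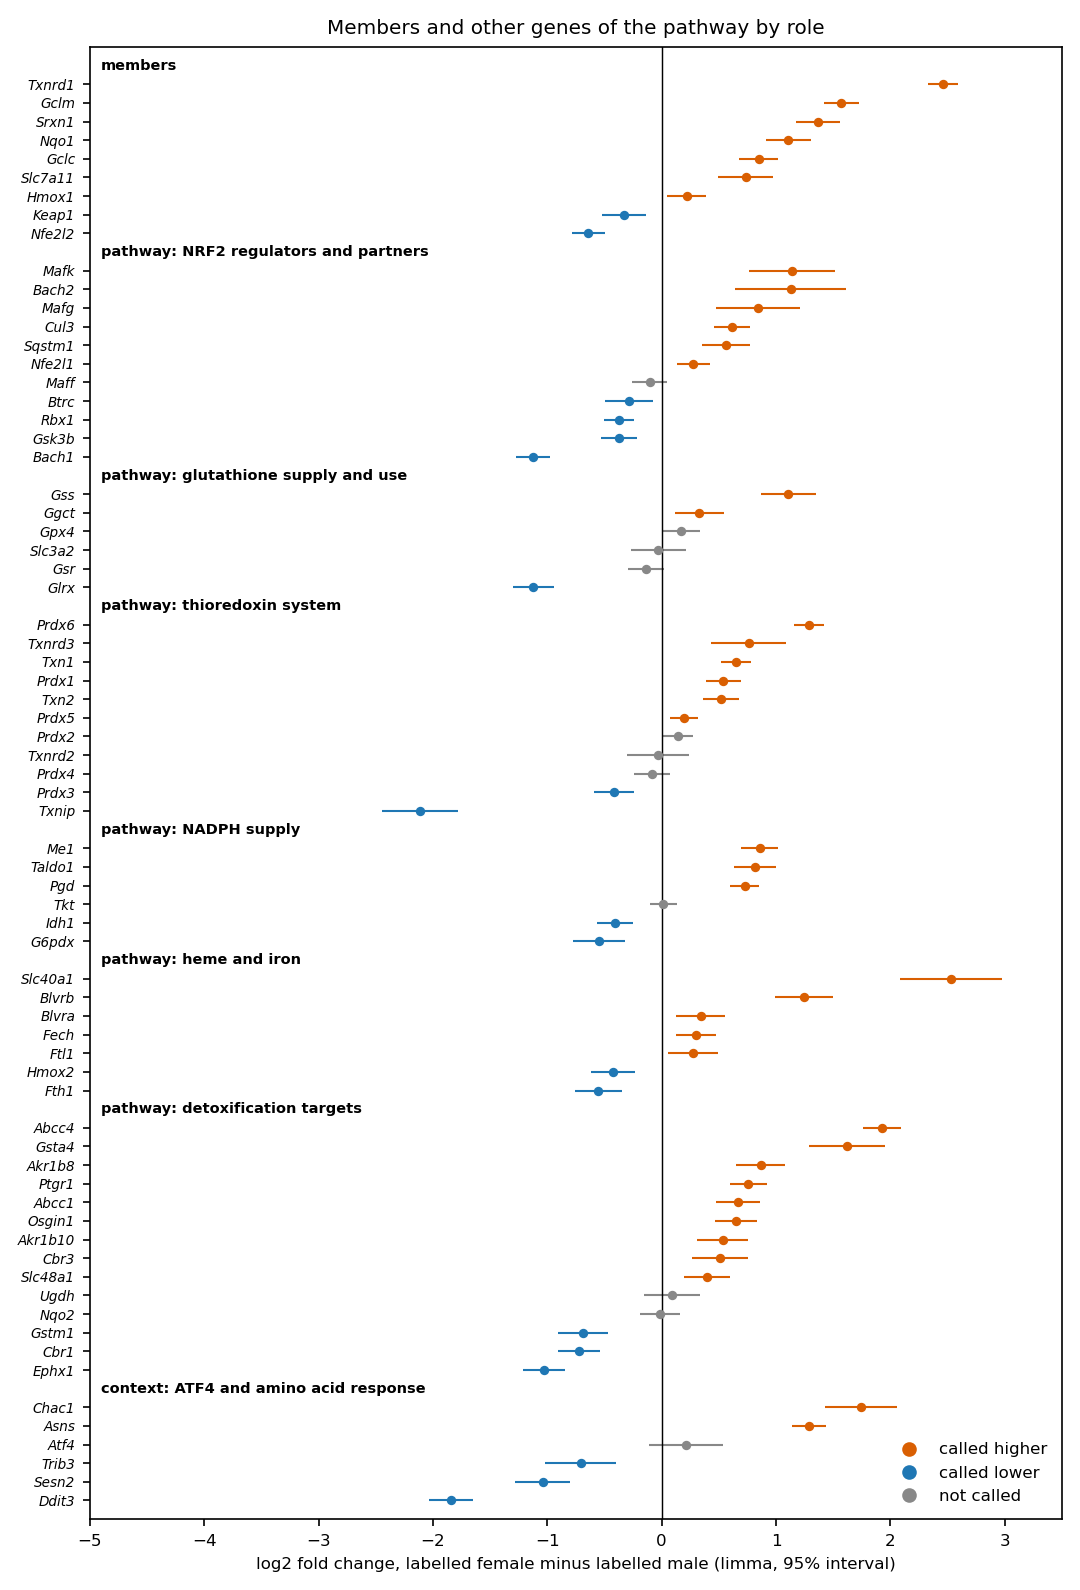
Log2 fold change of the libraries labelled female against those labelled male (horizontal axis) of the 9 members, the 55 tested pathway genes and 6 genes of the amino acid response, grouped by role, with 95% intervals from limma and colours for the call. Members range from -0.64 (Nfe2l2) to 2.46 (Txnrd1), and the pathway lists from -2.11 (Txnip) to 2.53 (Slc40a1).

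In the authors' deposited table, 4 of the 9 members had a false discovery rate under 0.05, where 25.8% of its genes did. The authors' deposited table gives these as Nqo1 (fold change 2.15, false discovery rate 0.0221), Gclm (2.995, 0.000181), Txnrd1 (5.51, 2.12e-10) and Srxn1 (2.58, 1.68e-05). The other 5 were called here but not in the authors' deposited table, where the false discovery rates are 0.0980 for Nfe2l2, 0.390 for Keap1, 0.165 for Gclc, 0.321 for Slc7a11 and 0.700 for Hmox1. The directions of all 9 are the same in the authors' deposited table.

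As a description of likeness, the gene with the highest Pearson correlation to each member over the 6 libraries was sought among 8967 tested genes with a mean of at least 10. For Txnrd1 it was Fgf7 (r = 0.9998), for Nfe2l2 Rbbp9 (0.9997), for Gclm Tada2b (0.9997) and for Gclc Mysm1 (0.9995). For Nqo1 it was Utp6 and for Srxn1 Depdc5 (both 0.9988), for Slc7a11 Dtwd1 (0.9986), for Hmox1 Kpna6 (0.9952) and for Keap1 Ano6 (0.9944). Such values were common over 6 libraries in 2 groups. A correlation of 0.95 was exceeded by 1844 genes for Nfe2l2 and 1753 for Txnrd1, but by 77 for Hmox1 and 278 for Keap1, the members whose groups lay closest.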

How the data were processed

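RNA was measured in 6 libraries, 3 per label, from 1 deposited table of 13595 genes with 1 column per library, assigned by title (0 value columns were left over). The submitters' processing notes name Bowtie2, RSEM, edgeR and the build mm39, with no role. As signal, the authors deposited normalized read counts. In each column 100% of them were whole multiples (within 0.001 reads) of its smallest value above 0, so the authors had divided reads by 1 factor per library, and dividing by that value gave back the reads. The deposited score is the authors' signed fold change of female against male, and 2 further deposited columns hold their p-value and their false discovery rate, per the file headers.

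The deposited values were fitted with limma 3.58.1 in R 4.3.3 (eBayes with trend) on log2(value + 1) over the 12568 genes at 1 or more in at least 3 libraries, both groups, no covariate. P-values were two-sided, with Benjamini-Hochberg adjustment over all genes tested and a threshold of 0.05. Fold changes on this scale understate those of weak genes. Folds given as times or percent are ratios of group means. Pathway genes were named where called with a log2 fold change of at least 1, or among the 4 of highest mean of a list, and all members whatever their values. The members and lists were chosen with earlier results of these data known. Same-numbered libraries deviated from their group means with correlations of -0.09, -0.03 and -0.17, which showed no pairing by number. The labels do not say what the numbers mark, and 3 libraries per group cannot settle whether they pair. Alternatives were RLE (median-ratio) factors, quantile normalization, other filters, a pseudocount of 0.1, the replicate block, edgeR 4.0.16, DESeq2 1.42.0 and voom on recovered reads, each library left out, a fold threshold and, added after results were known, a loess correction for GC content and length. Lengths, GC content, exon overlap and shared 50-base stretches came from GENCODE M21 (GRCm38) by symbol.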

Additional observations from a re-analysis of the deposited data

How the results depend on the processing

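Of 144 log2 fold changes recomputed for the 9 members under 16 alternatives, 138 kept direction and call, 6 lost the call and 0 changed sign. Those lost were Hmox1 with the replicate block (0.22) and in 3 of the 6 fits that left out a library (from 0.17 to 0.25 over all 6), and Keap1 (-0.14) and Slc7a11 (0.23) under the GC and length correction, where 1 member was called lower. The cause was not tested. With the replicate block 8 members and 8314 genes in all were called. The fold threshold by construction left 2589 genes of 8704, 4 members (4 higher, 0 lower) and 12 pathway genes (8 higher, 4 lower) of 45. On the recovered reads edgeR called 8975 genes, DESeq2 8874 and voom 8996, with all 9 members among the calls of each. Otherwise counts stayed within 1.5 times, from 7373 to 9113 genes over the fits without a library. All 54 recomputed ratio differences kept their direction, and 50 moved by less than 1 SD (the larger of the groups' log2 SDs). Those that moved further did so under the GC and length correction: Keap1 to Nfe2l2 to 0.55, Gclm to Gclc to 0.55, Srxn1 to Prdx1 to 1.07 and Slc3a2 to Slc7a11 to -0.15. Each member had at least 1140 reads per library, whereas weak genes such as Bach2 had as few as 48, and the effect of depth was not tested.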
